A study of Homo sapiens with 6 samples.

Results

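The 53 genes described here act in DNA damage signalling and repair. They were listed by pathway, by a rule that uses no measured value, although earlier results of these data were known when the list was made. They fall into 6 pathways, with 9 checkpoint and sensor genes, 12 genes of homologous recombination, 11 Fanconi genes, 3 mismatch repair genes, 5 end joining genes and 13 genes of base and nucleotide excision repair. All 53 symbols were found among the 23368 gene symbols of the count tables. RNA-seq was carried out on NB4 cells, a human acute promyelocytic leukaemia line that carries the PML/RARα fusion, either not treated (n.t.) or exposed for 24 h to 10 µM maltonis, a maltol-derived hydroxypyrone, with 3 libraries in each group. The labels give both groups the same RPMI medium with serum, and name no vehicle for the n.t. cells. The study calls the libraries biological replicates but does not say how the cultures were separated, so that p-values measure the spread between these libraries of 1 cell line. A lower count in such bulk RNA cannot tell less RNA of a gene per cell from fewer cells that carry it.

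DNA repair begins with recognition of the lesion. Broken ends are sensed by the MRE11A, RAD50 and NBN complex, stalled forks by the ATR kinase, and the signal passes to the kinases CHEK1 and CHEK2, which halt the cell cycle. Breaks are then rejoined by end joining or copied from the sister chromatid by homologous recombination, crosslinks between the strands are unhooked by the Fanconi pathway, and damaged or mispaired bases are cut out by the mismatch and excision pathways. In proliferating promyelocytic cells many of these genes are transcribed along with the replication programme.

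The libraries held 18492154 to 38205483 counts, so that 3 counts, taken as the limit of detection, corresponded to 0.0785 to 0.162 CPM, the counts scaled to library size, and the 10 most abundant genes took 5.31 to 6.09% of counts. These limits cover counting error only. MPO, the myeloperoxidase that defines promyelocytes, lay between 12892 and 15528 CPM in n.t. and between 7298 and 7553 CPM in maltonis-treated libraries. All 8 myeloid markers were above the detection limit in some library, and their summed level, most of it MPO, was 13907 to 16378 CPM in n.t. and 8677 to 9155 CPM after treatment. They did not move together, since CD33, CEBPE and SPI1 were also lower in every treated library than in any n.t. library, while 4 markers were higher in every treated library. These were ELANE (0.0603 to 0.166 CPM in n.t., 14.5 to 21 CPM treated), CTSG (103 to 113 and 539 to 576 CPM), AZU1 (41.5 to 49.2 and 60 to 71.3 CPM) and PRTN3 (449 to 584 and 595 to 896 CPM). Of the markers of other cells, the 4 T cell genes summed to 43.5 to 45.7 CPM in n.t. and 15.3 to 16 CPM in treated libraries, nearly all of it CD3D, with CD3E at or under the limit. The 3 B cell markers summed to 2.08 to 3.25 and 1.14 to 1.28 CPM with MS4A1 at 0, the 4 epithelial markers to 38.6 to 39.6 and 29.3 to 31.5 CPM with CDH1 at 0, and the 3 fibroblast markers to at most 0.0533 and 0.826 CPM. The part of these shifts in the results below was not tested. The library names carry a code that sets replicate 1 of both groups (code A) apart from replicates 2 and 3 (code B), with no meaning stated.

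All 53 members passed the filter on low counts, and the lowest count of any member in any library was 47, for RAD52 in maltonis replicate 1. Expressed as RPKM, which is CPM per kilobase of exon, the median member lay at 9.82 RPKM in n.t. cells and the median of all genes tested at 6.33. The most abundant transcripts per length were XRCC5 at 192 RPKM, XRCC6 at 134 RPKM, APEX1 at 129 RPKM, UNG at 106 RPKM and PRKDC at 74.1 RPKM, followed by MSH6 at 40.3 RPKM and NEIL3 at 33.2 RPKM. The lowest were ERCC5 at 1.1 RPKM, ERCC6 at 1.37 RPKM, FANCC at 1.6 RPKM, ERCC4 at 2.2 RPKM and OGG1 at 2.34 RPKM. The genes of Ku and its kinase and of abasic and uracil repair thus stood at the top, and ERCC genes of nucleotide excision held 3 of the 5 lowest places. With the shorter exon set of the basic annotation the level of OGG1 came to 6.77 RPKM, for instance, and 9 of the 10 highest members were shared.

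In maltonis-treated cells 28 of the 53 members (52.8%) were higher, at an FDR (false discovery rate) under 0.01, where 31.9% of the 13209 genes tested were higher. Another 15 members (28.3%) were lower, beside 32.1% of all genes tested, and 10 did not pass. The genes tested were not matched to the members in level (median 6.33 against 9.82 RPKM in n.t. cells). The part of level in these shares, and in the share without overlap given below, was not tested. The median log2 fold change was 0.32 over the members and 0.01 over all genes tested, with quartiles of -0.58 and 0.60 for the latter. Most changes were small, since 35 of the 43 called members moved by less than 1 on the log2 scale, and the median size of change was 0.45 against 0.59 for all genes tested. When a change beyond 2.5-fold was also required, LIG4, ERCC5, ERCC6 and OGG1 passed as higher, 4 members beside 9.96% of all genes tested. By the same criterion RAD52 and ERCC1 passed as lower, 2 members beside 10.4% of all genes tested, and RAD50 lay just outside, with a 2.49-fold decrease. The study's rule also asks that the higher of the group levels exceed 10 RPKM, which was not applied in these counts. With the exon lengths used here LIG4 met it at 16 RPKM, and ERCC5 (2.8 RPKM), ERCC6 (3.53 RPKM), OGG1 (6.55 RPKM), RAD52 (4.64 RPKM) and ERCC1 (7.84 RPKM) did not. This depends on the exon set. With the shorter basic exon set treated OGG1 came to 19 RPKM and met it, and n.t. ERCC1 came to 10 RPKM, at the limit. ERCC5 (2.89 RPKM), ERCC6 (5.88 RPKM) and RAD52 (5.56 RPKM) remained below it.

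The n.t. and treated libraries did not overlap for 47 members (88.7%), beside 76.6% of all genes tested. These 47 were the 43 called members together with BLM, FANCE, XRCC5 and XPA. As no called member had overlapping libraries, its direction was necessarily the same within library code A and within library code B, which is no separate check. Scaling by total counts alone moved the median of all genes by 0.12 on the log2 scale, and gave 29 higher and 9 lower members (76.3% of member calls higher, against 65.1% with TMM scaling). Calls over all genes tilted the same way, with 37.1% of genes higher, 27.6% lower and 57.3% of calls higher under that scaling. The calls of ATR, TP53BP1, EXO1, MSH6, PRKDC and ERCC2 as lower were not kept under that scaling. The calls of 30 of the 43 members held under all 15 alternatives, and no called member changed its direction under any of them.

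**Figure D1:**
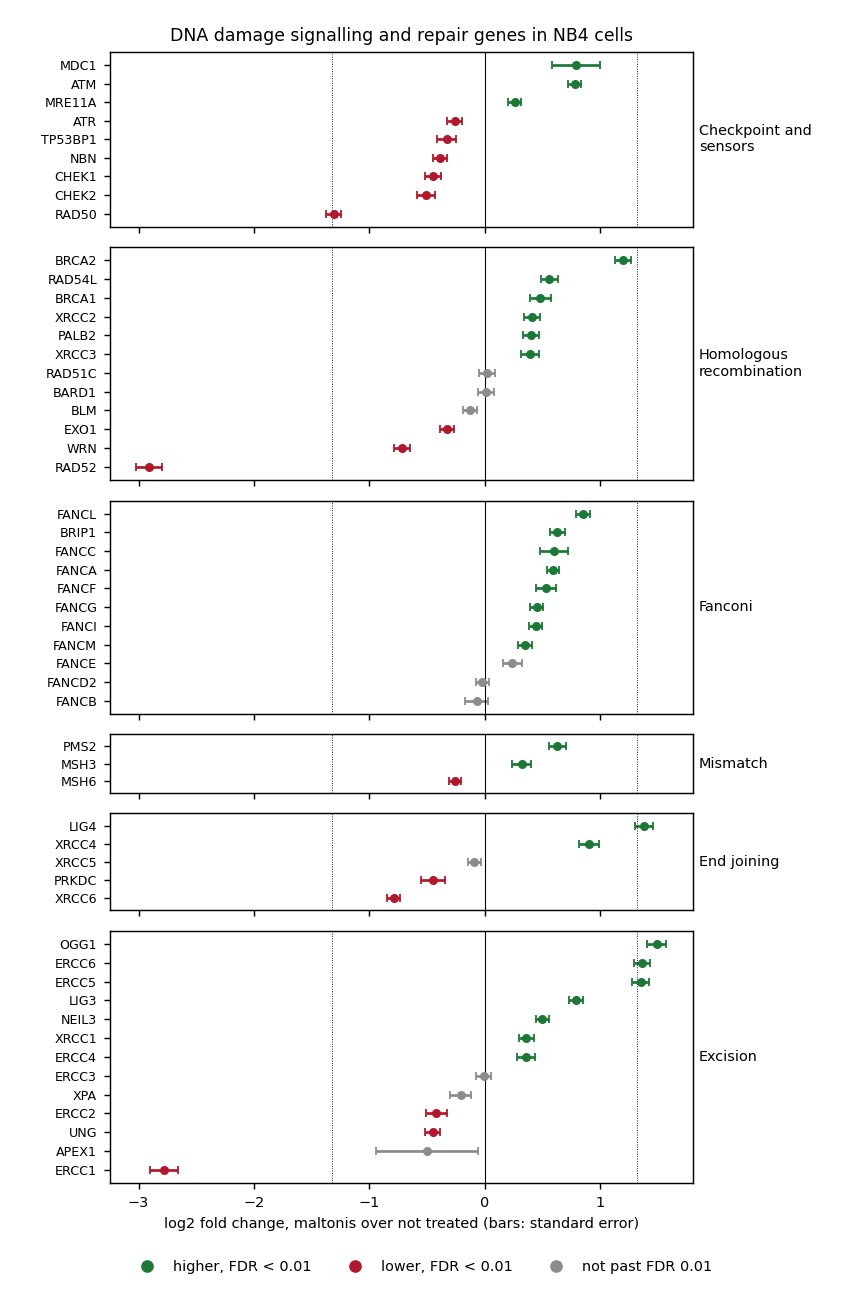
Log2 fold change (horizontal axis, maltonis over n.t., 3 libraries per group) of the 53 members in 6 pathways, with bars for the standard error and dotted lines at a 2.5-fold change in either direction. RAD52 at -2.91 and ERCC1 at -2.78 lie far to the left of all others, while the Fanconi genes form a row between -0.07 and 0.85.

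For 4 of the 8 members that changed by 1 or more on the log2 scale, the 120 bases before 1 transcript start are printed from RefSeq on build GRCh38.p14. They run in the direction of transcription, to show what these promoters look like. Where a gene has several promoter windows, the one with most annotated coding starts was used. It held 2 of 6 coding starts for ERCC1, 4 of 6 for RAD52, 5 of 8 for OGG1 and 2 of 2 for BRCA2. Of the 3 windows of ERCC1, 1 held CCAAT. Capitals mark CCAAT (read as ATTGG on the other strand), the motif of the NF-Y factor, or CACGTG, the E-box bound by the MYC and MAX family. ERCC1 and RAD52 are the members that fell most, OGG1 rose most, and BRCA2 rose most among the recombination genes. They lie at chr19:45423529-45423648 on the minus strand for ERCC1, chr12:949695-949814 on the minus strand for RAD52, chr3:9749832-9749951 on the plus strand for OGG1 and chr13:32315388-32315507 on the plus strand for BRCA2.
ERCC1: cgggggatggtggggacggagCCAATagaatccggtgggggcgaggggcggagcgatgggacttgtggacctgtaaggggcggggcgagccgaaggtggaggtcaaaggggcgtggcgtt
RAD52: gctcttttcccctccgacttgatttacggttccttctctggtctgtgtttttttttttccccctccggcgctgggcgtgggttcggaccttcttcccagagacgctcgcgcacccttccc
OGG1: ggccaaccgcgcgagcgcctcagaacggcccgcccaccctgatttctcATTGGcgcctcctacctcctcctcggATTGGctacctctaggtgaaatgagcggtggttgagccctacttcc
BRCA2: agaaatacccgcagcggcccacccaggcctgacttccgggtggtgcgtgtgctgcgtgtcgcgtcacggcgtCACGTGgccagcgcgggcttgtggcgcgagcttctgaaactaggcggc

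The stretch of RAD52, and those of RAD50, LIG4, ERCC5 and ERCC6, which are not printed, held none of the motifs searched, which were the CCAAT box, the E-box CACGTG, the E2F-like TTTNNCGC and the CHR-like TTTGAA, on both strands. Over the whole windows of 300 bases, from 250 before to 50 after a start, 48 of the 53 members were matched, with 69 windows. CCAAT was found in 49.3% of member windows, 34.5% of the 13323 windows matched to 9130 of the genes tested and 34.6% of all 35116 windows. TTTNNCGC was found in 20.3%, 9.63% and 6.89%, CACGTG in 10.1%, 9.35% and 7.26%, and TTTGAA in 13%, 10.8% and 15.2%. Among the 37 windows of members that rose, 56.8% held CCAAT and 18.9% TTTNNCGC. Among the 22 windows of members that fell these shares were 50% and 27.3%, and among the 10 of members not past the threshold 20% and 10%. Some genes have several windows, so that these are shares of few genes. Such matches describe the letters of the window and were not tested against the changes in expression. NBN, WRN, FANCI, XRCC5 and PRKDC were not matched.

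The checkpoint group was split, with 3 genes (33.3%) higher, 6 (66.7%) lower and a median log2 fold change of -0.33. The counts of members by pathway, here and below, stand beside 31.9% higher and 32.1% lower of all genes tested. ATM, the kinase activated by double-strand breaks, rose from 202 ± 8.58 to 347 ± 10.3 CPM (mean and SD of 3 libraries, as for all such pairs below), or by 0.78 on the log2 scale (adjusted p = 3.74e-06). The p-values of genes were all obtained with edgeR's quasi-likelihood test and adjusted after Benjamini and Hochberg over all genes tested. ATR, its counterpart at stalled forks, fell from 114 ± 3.6 to 95.3 ± 6.23 CPM (log2 -0.26, adjusted p = 0.00656). The effector kinases CHEK1 and CHEK2 fell by 0.45 and 0.51 on the log2 scale, CHEK1 from 110 ± 9.06 to 80.8 ± 2.05 CPM and CHEK2 from 50.7 ± 4.51 to 35.5 ± 0.0661 CPM. The ATM transcript therefore moved against those of ATR and both effector kinases.

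MDC1 is the scaffold that binds marked chromatin beside a break, and its rise was close in size to that of ATM. It was counted at 45.9, 59.4 and 88.2 CPM in n.t. replicates 1, 2 and 3 and at 123, 113 and 99.8 CPM in treated replicates 1, 2 and 3. The groups did not overlap, but the n.t. libraries lay farther from each other than the highest of them lay from the lowest treated one. The log2 fold change was 0.79 with a standard error of 0.206 (adjusted p = 0.00734), and within library codes A and B it was 1.42 and 0.55. MDC1 led ATM by 0.01 only, and the order turned without n.t. replicate 1 (0.59 against 0.79), n.t. replicate 2 (0.72 against 0.74) or treated replicate 1 (0.69 against 0.78). TP53BP1, a chromatin-bound factor that steers breaks toward end joining, fell from 128 ± 12 to 101 ± 5.12 CPM (log2 -0.33, adjusted p = 0.00493).

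RAD50, the coiled-coil ATPase that tethers broken ends, had the largest fall of the group. RAD50 stood at 108, 97.8 and 110 CPM in the n.t. libraries and at 41.6, 41.9 and 43.7 CPM in the treated ones. Its mean treated level was 40.2% of the n.t. level, with no overlap of libraries (log2 -1.31, SE 0.0677, adjusted p = 4.78e-07). The other subunits of the same complex moved less. NBN, which recruits ATM, fell from 150 ± 7.69 to 114 ± 2.45 CPM (log2 -0.39), while the nuclease MRE11A went from 109 ± 1.03 to 130 ± 5.82 CPM (log2 0.26, adjusted p = 0.0027). Without n.t. replicate 2, 4 of these 9 calls were lost, with adjusted p = 0.0136 for ATR, 0.0319 for MDC1, 0.02 for TP53BP1 and 0.0173 for MRE11A. The same genes had adjusted p-values between 0.0106 and 0.0464 where other single libraries were left out and their calls ended, namely n.t. replicate 3 or treated replicate 1 or 3 for ATR, any treated replicate for MDC1, n.t. replicate 3 or any treated replicate for TP53BP1, and treated replicate 2 or 3 for MRE11A.

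Homologous recombination had 6 genes (50%) higher, 3 (25%) lower, 3 not past the threshold and a median log2 fold change of 0.21. BRCA2, which loads the recombinase onto resected DNA, was counted at 151, 135 and 157 CPM in n.t. and at 342, 343 and 333 CPM in treated libraries. The treated libraries lay far above all n.t. libraries, and close together. The log2 fold change of BRCA2 was 1.20 (SE 0.0688, adjusted p = 8.44e-07), and its level per length rose from 12 to 27.6 RPKM. PALB2, the bridge between BRCA1 and BRCA2, rose by a log2 fold change of 0.40 from 44.3 ± 3.08 to 58.5 ± 0.845 CPM. BRCA1, a ubiquitin ligase subunit, rose from 147 ± 17.2 to 204 ± 11.4 CPM (log2 0.48, adjusted p = 0.00119), while its obligate partner BARD1 had 53.9 ± 3.44 and 54.3 ± 1.59 CPM (log2 0.01, adjusted p = 0.888). Without treated replicate 2 or 3 the adjusted p of BRCA1 was 0.0127 and 0.0132.

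RAD52, the annealing protein of the pathway, had the largest fall of all 53 members. RAD52 was counted at 20.8, 19.5 and 18 CPM in n.t. libraries and at 2.43, 2.48 and 2.8 CPM in treated libraries, which left 13.3% of the n.t. level. The log2 fold change was -2.91 (SE 0.11, adjusted p = 1.1e-07), and its level per length went from 4.64 to 0.613 RPKM. Of the recombinase paralogs, XRCC2 rose by a log2 fold change of 0.41 and XRCC3 by 0.39, and RAD51C had 56.9 ± 4.12 and 57.8 ± 0.733 CPM (log2 0.02, adjusted p = 0.764). Of the enzymes that remodel or resect DNA, the translocase RAD54L rose from 41.7 ± 3.33 to 61.7 ± 0.964 CPM (log2 0.56). The helicase WRN fell from 48.4 ± 0.74 to 29.2 ± 1.6 CPM (log2 -0.72) and the exonuclease EXO1 from 84.4 ± 3.72 to 67 ± 2.46 CPM (log2 -0.33). The related helicase BLM had 176 ± 8.65 and 161 ± 5.04 CPM, with a log2 fold change of -0.13 that did not pass (adjusted p = 0.0731).

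The Fanconi genes had the narrowest middle range of the 6 groups, with quartiles of 0.29 and 0.59 around a median log2 fold change of 0.45. Of the 11 genes 8 (72.7%) were higher and none lower, beside 31.9% and 32.1% of all genes tested. By edgeR's test at an unadjusted p under 0.05 and by DESeq2, no Fanconi member was lower either. FANCL, the ubiquitin ligase of the core complex, was counted at 34.4, 34.5 and 33.8 CPM in n.t. and at 58.8, 63.1 and 63.3 CPM in treated libraries. This was the largest rise of the group (log2 0.85, SE 0.063, adjusted p = 3.76e-06), and the libraries of each group lay close together. Of the other core complex genes, FANCA rose from 87.2 ± 1.1 to 131 ± 3.83 CPM (log2 0.59), FANCC from 20.5 ± 3.3 to 31.2 ± 2.11 CPM (log2 0.60), FANCF from 17.1 ± 1.53 to 24.5 ± 0.204 CPM (log2 0.53) and FANCG from 107 ± 3.25 to 147 ± 3.53 CPM (log2 0.45). FANCM, the translocase that anchors the core complex, rose by a log2 fold change of 0.35 from 43.4 ± 0.971 to 55.3 ± 1.99 CPM.

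FANCE had 39.5 ± 3.93 and 46.4 ± 1.63 CPM (log2 0.24, adjusted p = 0.0292) and FANCB 23.1 ± 0.767 and 21.9 ± 2.75 CPM (log2 -0.07, adjusted p = 0.542, and 0.02 with upper quartile scaling). FANCI and FANCD2 form the clamp that the core complex modifies. FANCI rose from 217 ± 8.14 to 294 ± 4.32 CPM (log2 0.44), and FANCD2 had 116 ± 1.71 and 114 ± 4.24 CPM (log2 -0.02, adjusted p = 0.752, and 0.07 with upper quartile scaling). BRIP1, the helicase that binds BRCA1, rose from 43.5 ± 0.997 to 67.4 ± 4.3 CPM (log2 0.63, adjusted p = 4.06e-05). The call of FANCC ended without treated replicate 2 or 3 (adjusted p = 0.0148 and 0.0115) and that of FANCM without treated replicate 2 (adjusted p = 0.0103). FANCE passed without n.t. replicate 1, with a log2 fold change of 0.31 and adjusted p = 0.00342.

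The 3 mismatch repair genes moved in both directions. MSH6, the subunit that recognises single mispairs, was counted at 435, 451 and 444 CPM in n.t. and at 370, 366 and 371 CPM in treated libraries. The shift of MSH6 was small, with a log2 fold change of -0.26 (SE 0.0504, adjusted p = 0.0013), although no libraries of the groups overlapped. MSH3, the alternative subunit for larger loops, rose from 35.6 ± 3.01 to 44.4 ± 2.71 CPM (log2 0.32, adjusted p = 0.00822). Leaving out any library but n.t. replicate 3 ended the call of MSH3, with adjusted p-values from 0.0174 to 0.0653. PMS2, the endonuclease subunit, was counted at 31.4, 29.1 and 30.1 CPM in n.t. and at 48.1, 48.3 and 43.6 CPM in treated libraries. PMS2 rose by a log2 fold change of 0.63 (SE 0.0719, adjusted p = 5.62e-05).

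The end joining group held 3 genes of high level per length that were lower or did not pass. Its 2 other genes, near the median of all genes tested per length, were higher. Thus 2 (40%) were higher, 2 (40%) lower and 1 not past, with a median log2 fold change of -0.09. XRCC6, the smaller Ku subunit, was counted at 442, 437 and 446 CPM in n.t. and at 244, 261 and 263 CPM in treated libraries. XRCC6 fell by 0.79 on the log2 scale (SE 0.0551, adjusted p = 2.67e-06), from 134 to 77.9 RPKM. The larger Ku subunit XRCC5, with which it binds broken ends as a heterodimer, had 1048 ± 32.5 and 985 ± 33.2 CPM (log2 -0.09, adjusted p = 0.186). PRKDC, the kinase that Ku recruits, fell from 1143 ± 185 to 836 ± 22 CPM (log2 -0.45, adjusted p = 0.00412). The call of PRKDC ended without treated replicate 1, 2 or 3, with adjusted p = 0.0197, 0.0148 and 0.0201.

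LIG4, the ligase that seals the joined ends, was counted at 28.6, 27.3 and 25.3 CPM in n.t. and at 65.8, 71.5 and 73.7 CPM in treated libraries. The treated level of LIG4 was 2.6 times the n.t. level (log2 1.38, SE 0.0763, adjusted p = 6.92e-07), with all treated libraries above all n.t. libraries. Its scaffold XRCC4 rose from 18.8 ± 1.18 to 34.8 ± 2.77 CPM (log2 0.90, adjusted p = 1.93e-05). Per length, LIG4 went from 6.17 to 16 RPKM and XRCC4 from 7.02 to 13 RPKM, both still below XRCC6 at 77.9 RPKM.

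**Figure D2:**
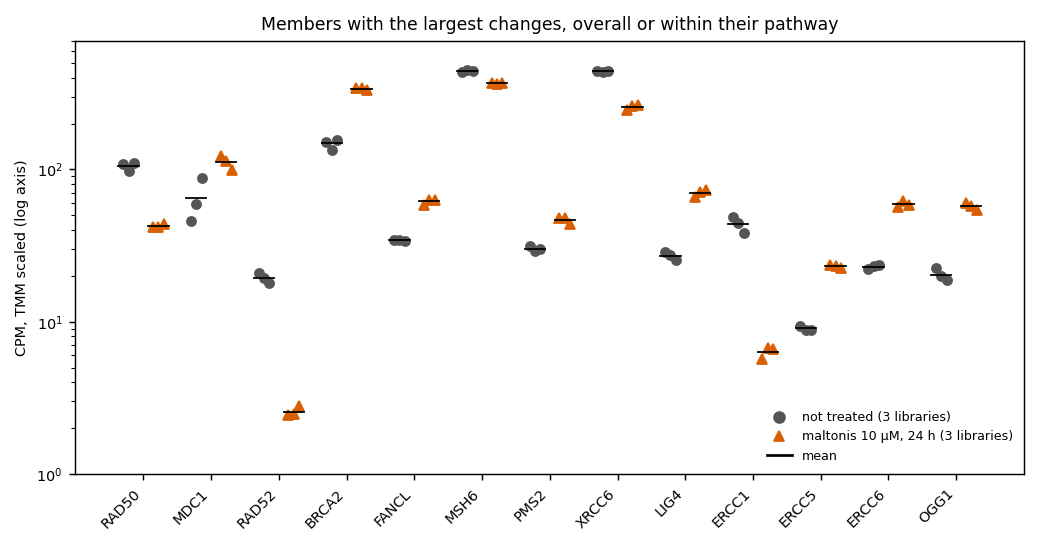
TMM-scaled CPM (vertical log axis) in each n.t. library (circles) and each maltonis-treated library (triangles) of the members with the largest changes overall or within their pathway, with black lines at the group means. In each gene the circles and triangles are apart, and the widest gaps are those of RAD52 and ERCC1.

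Excision repair held both the strongest rise and the second strongest fall. It had 7 genes (53.8%) higher, 3 (23.1%) lower, 3 not past and a median log2 fold change of 0.36. OGG1, the glycosylase that removes oxidised guanine, was counted at 22.4, 20 and 18.9 CPM in n.t. and at 60.3, 57.2 and 54.1 CPM in treated libraries. The treated level of OGG1 was 2.81 times the n.t. level (log2 1.49, SE 0.0841, adjusted p = 7.75e-07), the largest rise among the members. The glycosylase NEIL3 rose from 98.4 ± 2.98 to 139 ± 3.32 CPM (log2 0.50), and the uracil glycosylase UNG fell from 271 ± 17 to 199 ± 7.1 CPM (log2 -0.45). The 3 glycosylases among the members thus did not share a direction. Downstream in the same pathway, the scaffold XRCC1 rose from 44.9 ± 0.873 to 57.6 ± 2.55 CPM (log2 0.36) and its ligase LIG3 from 127 ± 3.63 to 221 ± 13.5 CPM (log2 0.79, adjusted p = 5.73e-06).

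ERCC1, the partner of the nuclease ERCC4 that cuts on the 5′ side of a bulky lesion, was counted at 49, 44.2 and 38 CPM in n.t. and at 5.68, 6.68 and 6.57 CPM in treated libraries. The treated level of ERCC1 was 14.6% of the n.t. level, with no overlap of libraries (log2 -2.78, SE 0.118, adjusted p = 1.82e-07). ERCC4 itself rose from 18.6 ± 1.12 to 23.7 ± 0.989 CPM (log2 0.36, adjusted p = 0.00292). ERCC5, the nuclease that cuts on the 3′ side, was counted at 9.43, 8.86 and 8.87 CPM in n.t. and at 23.4, 23.3 and 22.5 CPM in treated libraries. The rise of ERCC5 was 2.55-fold (log2 1.35, SE 0.0772, adjusted p = 8.27e-07).

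ERCC6, which recruits repair to stalled RNA polymerase, was counted at 22.1, 23.3 and 23.5 CPM in n.t. and at 57, 62.2 and 58.2 CPM in treated libraries. The rise of ERCC6 was 2.57-fold (log2 1.36, SE 0.0686, adjusted p = 4.23e-07), close in size to that of ERCC5. Of the helicases of the repair and transcription factor TFIIH, ERCC2 fell from 36.7 ± 3.01 to 27.5 ± 2.38 CPM (log2 -0.42, adjusted p = 0.00294), and ERCC3 had 111 ± 6.84 and 110 ± 1.43 CPM (log2 -0.01, adjusted p = 0.936, and 0.08 with upper quartile scaling). XPA, the scaffold of the incision complex, had 13 ± 0.871 and 11.1 ± 0.65 CPM (log2 -0.21, adjusted p = 0.0693). The call of ERCC2 ended without n.t. replicate 2 or treated replicate 2 (adjusted p = 0.0134 and 0.0114). The call of ERCC4 ended without n.t. replicate 2 or 3 or treated replicate 2 or 3, with adjusted p-values from 0.0109 to 0.0201.

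APEX1, the endonuclease that cuts abasic sites, had the widest spread between libraries of a group, with a coefficient of variation of 56.4% in n.t. libraries. APEX1 was counted at 85.5, 313 and 333 CPM in n.t. and at 114, 202 and 204 CPM in treated libraries. In both groups the code A library, replicate 1, was the lowest, and the groups overlapped. The log2 fold change over all libraries was -0.50 (SE 0.442, adjusted p = 0.334), and within codes A and B the log2 difference was 0.41 and -0.67. Without n.t. replicate 1 the fold change of APEX1 was -0.91 on the log2 scale (adjusted p = 0.00311). MDC1 followed with 33.6%, PRKDC with 16.2% and FANCC with 16.1% in n.t. libraries, and FANCB with 12.6% in treated libraries.

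**Figure D3:**
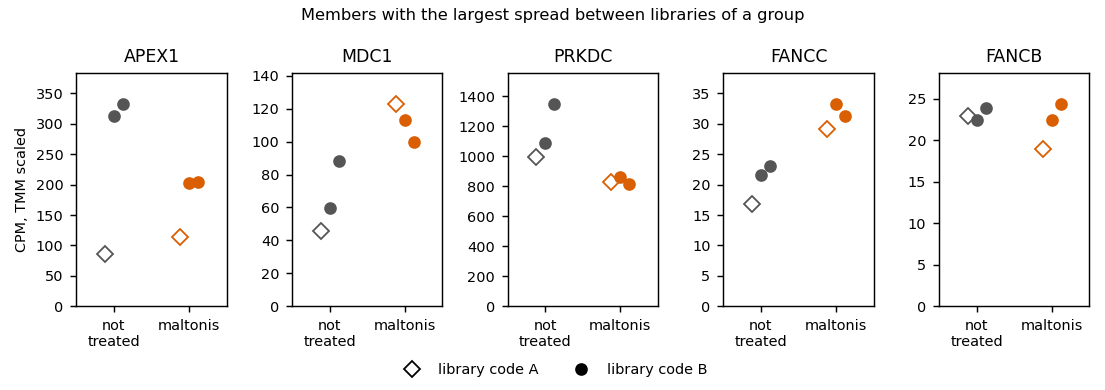
TMM-scaled CPM (vertical axes from 0) of the 5 members with the largest coefficients of variation, by group, with open diamonds for library code A (replicate 1) and filled circles for code B (replicates 2 and 3). In APEX1 the open diamonds at 85.5 and 114 CPM lie below all code B libraries of either group.

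Because several members work as fixed complexes, the log2 ratio of the counts of 13 pairs of partners was taken within each library, where library scaling cancels. For 12 pairs the n.t. and treated libraries were apart. The same share for pairs of any genes was not computed, and 76.6% of single genes tested were already apart. For MRE11A over RAD50, MSH3 over MSH6 and ERCC1 over ERCC4, the 2 partners had moved in opposite directions without overlap. Their ratios were therefore necessarily apart, which is no separate check. In 3 against 3 libraries such separation gives an exact two-sided permutation p of 0.1, the smallest possible. The adjusted p was 0.108 over the 13 pairs, so that none could reach 0.05. Inside the break-sensing complex, MRE11A over RAD50 went from a mean log2 ratio of 0.05 ± 0.0817 to 1.62 ± 0.05 (SD over 3 libraries), a relative gain of 2.98-fold, and NBN over RAD50 from 0.50 ± 0.0981 to 1.43 ± 0.0283. The steepest shift was that of ERCC1 over ERCC4, from 1.23 ± 0.161 to -1.91 ± 0.0798, an 8.8-fold change in balance.

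The Ku pair also shifted, with XRCC5 over XRCC6 going from 1.25 ± 0.0501 to 1.94 ± 0.0295, and LIG4 over XRCC4 from 0.53 ± 0.11 to 1.02 ± 0.0333. BARD1 over BRCA1 changed by -0.47 and PALB2 over BRCA2 by -0.80 on the log2 scale. The ratios FANCI over FANCD2, MSH3 over MSH6, LIG3 over XRCC1, ERCC3 over ERCC2 and XRCC3 over RAD51C gained 0.46, 0.58, 0.43, 0.41 and 0.37. FANCG over FANCA went from 0.30 ± 0.0605 to 0.17 ± 0.0736 with overlapping libraries (exact permutation p = 0.2).

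**Figure D4:**
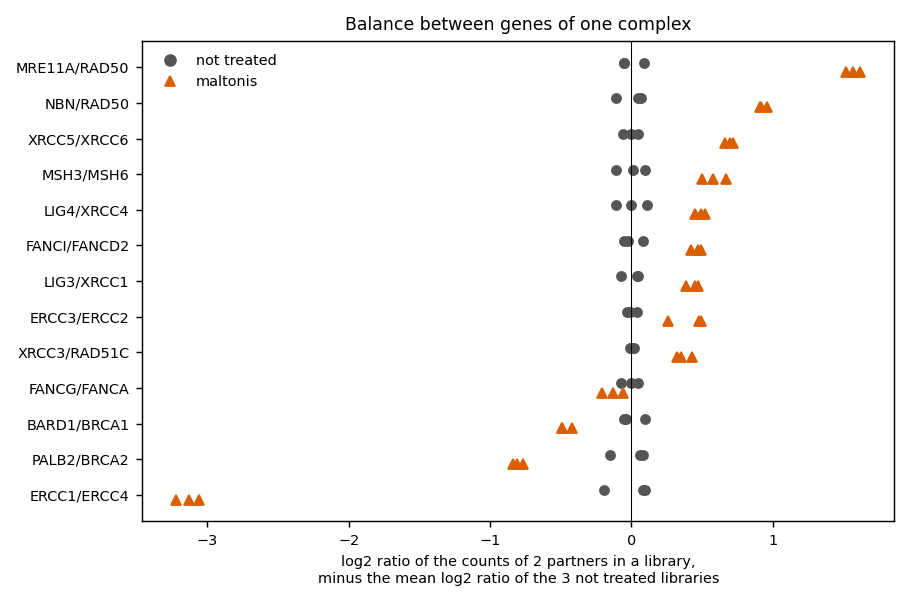
Log2 ratio of the counts of 2 partner genes in each library, less the mean log2 ratio of the 3 n.t. libraries (horizontal axis), for 13 pairs, with n.t. libraries as circles and maltonis-treated libraries as triangles. The triangles are apart from the circles in 12 pairs, from -3.14 for ERCC1 over ERCC4 to 1.57 for MRE11A over RAD50 in the means.

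Several members share exonic sequence with neighbouring genes in GENCODE version 29. The libraries were made with a strand-marking kit, but the strand setting of the counting is not given in the sources used here, so that reads in shared stretches of opposite genes cannot be assigned with certainty. CD3EAP, on the other strand, shares 28.6% of the exonic bases of ERCC1 and also fell, from 12.7 to 3.74 CPM (log2 -1.76). For OGG1 the opposite genes CAMK1 (25% of exonic bases) and TADA3 (4.08%) had log2 fold changes of -1.26 and 1.13. VRK2, opposite FANCL (18.7%), and KLC1, opposite XRCC3 (76.7%), fell by 0.96 and 0.55 on the log2 scale, against the rise of their neighbours, and RFFL, opposite LIG3 (29.1%), rose by 0.35. ERCC5 shares 19.1% of its exonic bases with BIVM on the same strand (log2 -0.30, adjusted p = 0.0128) and 63.2% with their readthrough gene, and RAD50 shares 79.7% with a readthrough annotation. CHEK2, FANCD2, PMS2 and BRCA1 have near-identical partial copies elsewhere in the genome, so that their counts are uncertain to the extent that reads were split.

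To place the members within their pathways, 117 other genes of the same 6 pathways and of the response to damage were described. Of these, 51 (43.6%) were higher and 26 (22.2%) lower, beside 31.9% and 32.1% of all genes tested, with a median log2 fold change of 0.11. The counts by pathway below stand beside the same shares. The end joining genes were mostly higher, 7 of 9 (77.8%), with a median of 0.81. POLM, a gap-filling polymerase, rose from 13.8 ± 1.11 to 32 ± 5.35 CPM (log2 1.21), and TDP1, which clears proteins from DNA ends, fell from 98.1 ± 4.17 to 68.6 ± 0.689 CPM (log2 -0.52). Among the recombination genes, 11 of 21 (52.4%) were higher and 3 (14.3%) lower, with a median of 0.43. The nuclease scaffold SLX4 rose by a log2 fold change of 1.10, and SHFM1, the small partner of BRCA2, fell from 105 ± 12.5 to 17.8 ± 2.18 CPM (log2 -2.55, adjusted p = 2.72e-07). SHFM1 therefore fell where BRCA2 itself rose.

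The other genes of the Fanconi and linked translesion steps gave 3 of 15 higher (20%) and 6 lower (40%), with a median log2 fold change of -0.13, and their difference from the members was not tested. C19orf40, a core complex partner, rose from 5.72 ± 0.751 to 14.6 ± 1.37 CPM (log2 1.36). APITD1, a histone-fold partner of FANCM, fell from 10.5 ± 1.23 to 3.63 ± 0.616 CPM (log2 -1.53). Other core complex partners, chosen after their values were seen, did not rise. C17orf70 fell from 87 ± 8.32 to 35.5 ± 2.82 CPM (log2 -1.29), and C1orf86 did not pass (log2 -0.13). The checkpoint genes gave 8 of 21 (38.1%) higher and 6 (28.6%) lower, near the shares of all genes, with a median of 0.08, from FAM175A, a subunit of a BRCA1 complex, at 1.00 to MAD2L2, which acts with TP53BP1, at -1.01. The mismatch genes gave 4 of 10 (40%) higher and 6 not past (median 0.07), with RFC5 of the clamp loader at 0.39, the largest rise. These 10 were MLH3, PMS1, PCNA, RFC1 to RFC5, POLD1 and LIG1.

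The excision genes gave 10 of 27 (37%) higher and 7 (25.9%) lower, near the shares of all genes, with a median of -0.06. DDB2, which recognises ultraviolet lesions, rose from 13.1 ± 1.31 to 23.1 ± 0.364 CPM (log2 0.82), and MNAT1, an assembly factor of TFIIH, fell from 41.2 ± 1.8 to 3.79 ± 0.578 CPM (log2 -3.46, adjusted p = 4.78e-08). Of 14 genes that cells induce after damage, 8 (57.1%) were higher and 3 (21.4%) lower, with a median of 0.85. TP53INP1, a p53-induced stress gene, rose from 2.34, 2.79 and 2.87 CPM in n.t. to 25.1, 30.4 and 28.9 CPM in treated libraries (log2 3.38, adjusted p = 7.6e-08). CDKN1A, the cyclin-dependent kinase inhibitor induced by p53, fell from 23, 20.5 and 20.5 CPM to 2.12, 1.28 and 1.56 CPM (log2 -3.73, adjusted p = 1.72e-07). The response genes thus moved in both directions.

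**Figure D5:**
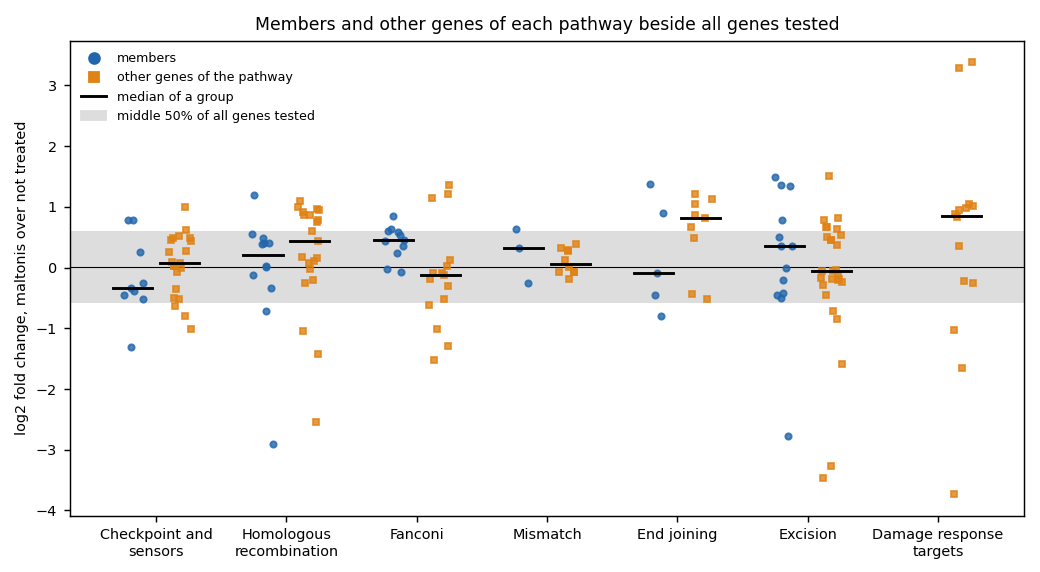
Log2 fold change (vertical axis, maltonis over n.t.) of the members (circles) and of the other genes of each pathway (squares), with black lines at group medians and a grey band for the middle 50% of all genes tested (-0.58 to 0.60). The member medians lie between -0.33 and 0.45, inside the band, and the medians of the other end joining genes (0.81) and of the damage response targets (0.85) lie above it.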

How the data were processed

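RNA-seq libraries were made by the authors from total RNA with a stranded, ribosomal-depleted kit. The deposited tables hold raw counts per gene symbol, made with HTSeq, 1 table per library. The submitters' processing notes name TopHat and Bowtie2 and the build hg19, and the annotation and strand setting are not given in the sources used here. Groups follow the labels, with 3 libraries each.

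Counts were analysed with edgeR 4.0.16 in R 4.3.3 (TMM scaling, filterByExpr, quasi-likelihood test without covariates), with Benjamini-Hochberg adjustment over 13209 genes. The standard errors given were derived from that test, as the size of the log2 fold change over the square root of its F statistic. RPKM used GENCODE version 29 exon lengths, and 0.5 was added to counts in ratios. The criteria of FDR under 0.01 and a 2.5-fold change were taken from the study's methods, without its further demand that the higher group level exceed 10 RPKM. Alternatives used DESeq2 1.42.0, other scalings, filters and omitted libraries. The procedure was tested on simulated counts in which a small part of the genes changed, evenly in both directions. That setting does not test the choice of scaling.

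Every member is accounted for. Values per library are given for members past FDR 0.01 with a log2 fold change of 1 or more in size, and for the largest rise and fall in each pathway. Of the other genes, the largest rise and fall in each pathway are named, and others are said to be chosen after their values were seen. Members and lists were chosen with earlier results of these data known. Of 118 other genes listed, 1 was not among the symbols. The result of 1 marker list is not reported here.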

Additional observations from a re-analysis of the deposited data

How the results depend on the processing

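DESeq2's size factors, DESeq2's Wald test, edgeR's likelihood ratio test and a minimum of 10 counts in every library of a group left 28 members higher and 15 lower with no call changed. Scaling by total counts left 9 lower members, and upper quartile scaling 29 higher and 11 lower, without ATR, TP53BP1, MSH6 and PRKDC. Without a filter on low counts MSH3 was lost. With the replicate number as a replicate block, 29 members were higher and 15 lower, FANCE being gained, and no other call changed. Same-numbered libraries correlated in their deviations by 0.301, 0.0852 and 0.161, and not every library correlated best with its own number, so that the numbers were not taken to pair the samples. Library code as a term gave 29 and 15.

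Leaving out 1 library gave 21 to 28 higher and 12 to 16 lower members, 3 to 4 and 2 to 3 with the fold criterion, and ended 11 calls, as given with the genes. With 2 libraries in a group the spread was pooled over both groups, as it also was in the main fit. Directions turned only for members that were not called. FANCB was at 0.02 and 0.05 with upper quartile and total count scaling, FANCD2 at 0.07 and 0.10, ERCC3 at 0.08 and 0.11, and XRCC5 at 0.03 with total counts. When single libraries were left out, BARD1 ranged from -0.04 to 0.05, RAD51C from -0.03 to 0.07 and ERCC3 from -0.06 to 0.03. APEX1 was at 0.41 within library code A, an alternative chosen after seeing the data. The cause of these changes was not tested. No partner ratio turned in any alternative. The scarcest member had 47 counts in a library, well above the 3 counts taken as the limit of detection.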

Other observations

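Within TFIIH, the complex that opens DNA in transcription and in nucleotide excision repair, subunits moved apart, a comparison chosen after the values were seen. Beside MNAT1 at a log2 fold change of -3.46, GTF2H4 fell from 25.9, 20.9 and 18.6 CPM in n.t. libraries to 2.79, 2.12 and 2.02 CPM in treated ones (log2 -3.26, adjusted p = 5.1e-07, edgeR). CDK7 and CCNH, the kinase and cyclin that MNAT1 joins, rose from 29.8 ± 0.924 to 51.4 ± 3.27 CPM and from 61.2 ± 0.971 to 83.3 ± 2.67 CPM (SD, n = 3). GTF2H2, which has near-identical copies that can share its reads, rose from 3.89 ± 0.234 to 5.61 ± 0.606 CPM (log2 0.54, adjusted p = 0.00371, edgeR). GTF2H1, GTF2H3 and GTF2H5 had log2 fold changes of -0.06, -0.04 and -0.17 and did not pass.

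Other partners chosen in the same way also moved apart. The nuclease subunit MUS81 fell from 75.7 ± 7.67 to 36.6 ± 0.454 CPM (log2 -1.05) while its partner EME1 rose from 22.5 ± 0.779 to 44.2 ± 2.29 CPM (log2 0.97). Of the single-strand binding complex, RPA2 rose from 111 ± 2.94 to 220 ± 2.38 CPM (log2 0.99), and RPA1 and RPA3 had log2 fold changes of -0.25 and -0.21 that did not pass (adjusted p = 0.298 and 0.113, edgeR).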
